A study of Tupaia belangeri with 6 samples.

Results

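Inhibitory interneurons of the cerebral cortex are told apart by the calcium-binding proteins and transcription factors they express. The genes described here are 3 such calcium-binding proteins (PVALB, CALB1 and CALB2), 4 homeodomain transcription factors of the interneuron lineage (LHX6, DLX1, DLX2 and DLX5), the secreted protein RELN, the membrane protein LAMP5 and the RNA-binding protein ADARB2. They were chosen by name as a set of 10, and rows with exactly that gene name were taken, with TPM (an abundance scaled for transcript length and for the total of the library) summed over the rows of 1 gene ID on 1 chromosome. Of the 10 genes, 7 were matched among the 95863 gene IDs of the abundance tables, and all 7 passed the filter on low values (at least 0.1 TPM in 3 or more libraries). RELN, DLX2 and LAMP5 matched no gene name in any of the 6 tables, so these 3 genes were not analysed here. Whether any of them is measured at a locus without a name was not tested.

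The libraries came from the prefrontal cortex (PFC) of 6 adult Chinese tree shrews (*Tupaia belangeri*) without treatment, of which 3 were females (numbered 1, 3 and 4) and 3 were males (numbered 1, 4 and 5). The study's sample overview lists every male at a greater age than every female, so sex and age cannot be told apart. Each library came from 1 animal, and polyadenylated RNA was enriched before sequencing. The tissue is a mixture of cells, and in such bulk samples fewer cells of a type and less RNA per cell cannot be told apart.

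Cortical interneurons arise outside the cortex, in the ganglionic eminences of the embryonic ventral forebrain, which also give rise to the neurons of the striatum. DLX factors act early in these precursors. LHX6 then marks the cells of the medial ganglionic eminence (MGE), which become parvalbumin (PVALB) and somatostatin (SST) interneurons, whereas ADARB2 marks cells of the caudal ganglionic eminence (CGE), among them those with vasoactive intestinal peptide (VIP). Parvalbumin, calbindin (CALB1) and calretinin (CALB2) bind calcium through EF-hand motifs and buffer it in the cytoplasm. Calbindin is also made by some excitatory neurons and by striatal neurons.

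The labelled tissue was checked against marker genes of cortex. The vesicular glutamate transporter SLC17A7, a marker of cortical excitatory neurons, was between 783 and 1569 TPM in the 6 libraries. GAD1, which makes GABA, was between 107 and 297 TPM, and the vesicular GABA transporter SLC32A1 between 170.5 and 367 TPM. The libraries also differed in ways that are given below beside single genes, and whose part in their levels was not tested. Loci to which StringTie assigned no strand took between 2.30% and 3.33% of all TPM in each female. For males 1, 4 and 5 this share was 5.16%, 2.67% and 7.88%. In addition, 3 libraries (females 1 and 3 and male 1) carried genes of striatal neurons that were at or near 0 in the others, as described with DLX5.

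The 3 calcium-binding proteins had the highest levels of the set. CALB1, on chromosome 13 (plus strand, 49082247 to 49137973 in TS_3.0, the genome build of the tables), had a mean of 148 ± 40.0 TPM (SD, n = 6). It stood at 101, 129 and 146 TPM in females 1, 3 and 4 and at 182, 124 and 209 TPM in males 1, 4 and 5. Males 1 and 5 lay above every female, whereas male 4 lay between female 1 and female 3, so the sexes overlapped.

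PVALB, the marker of fast-spiking interneurons (chromosome 6, plus strand, 110979930 to 110997562), had a mean of 102 ± 21.9 TPM (SD, n = 6). Its level was 94.0, 76.8 and 131 TPM in females 1, 3 and 4 and 103, 126 and 84.6 TPM in males 1, 4 and 5. The highest library was a female and the lowest was a female too, and the males lay within the female range.

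CALB2, which marks interneurons of the CGE in rodents and primates (chromosome 21, minus strand, 13444295 to 13476272), had a mean of 80.1 ± 7.36 TPM (SD, n = 6). It was at 77.3, 89.2 and 86.4 TPM in females 1, 3 and 4 and at 70.8, 73.6 and 83.4 TPM in males 1, 4 and 5. The highest library exceeded the lowest by only 1.26-fold, compared with 1.71-fold for PVALB and 2.07-fold for CALB1. Within a library, CALB1 ranked 1 among the 7 genes in every animal but male 4, in which PVALB was slightly higher.

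Among the transcription factors, LHX6 was the steadiest. LHX6 (chromosome 2, plus strand, 96518475 to 96544759) had a mean of 33.9 ± 2.85 TPM (SD, n = 6), a coefficient of variation of 8.40%. It was at 37.2, 31.2 and 31.0 TPM in females 1, 3 and 4 and at 32.7, 37.4 and 33.7 TPM in males 1, 4 and 5. No library stood apart, and the highest exceeded the lowest by 1.21-fold.

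DLX1 (chromosome 1, plus strand, 153760172 to 153764852), a factor needed for the survival of interneurons, had nearly the same mean as LHX6, at 31.1 ± 11.7 TPM (SD, n = 6), but a larger spread. Females 1, 3 and 4 had 23.5, 50.6 and 32.0 TPM, and males 1, 4 and 5 had 21.5, 38.1 and 21.1 TPM. Female 3 was highest and male 4 second, so the order did not follow sex.

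DLX5 (chromosome 5, minus strand, 102314741 to 102320343) had a mean of 19.6 ± 12.04 TPM (SD, n = 6) and the widest spread of the 7 genes, with a coefficient of variation of 61.3%. It was at 30.3, 36.7 and 11.3 TPM in females 1, 3 and 4 and at 22.3, 8.18 and 9.04 TPM in males 1, 4 and 5. Females 1 and 3 and male 1 were high, and female 4 lay with males 4 and 5 in a low range, so that the highest library was 4.48-fold above the lowest.

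ADARB2 (chromosome 2, plus strand, 37579804 to 38135800), a brain-specific relative of the adenosine deaminases that edit RNA, had the lowest mean, at 8.20 ± 3.19 TPM (SD, n = 6). It was at 7.61, 13.1 and 4.81 TPM in females 1, 3 and 4 and at 5.79, 6.94 and 10.9 TPM in males 1, 4 and 5. Female 3 and male 5 were the highest, and female 4 was the lowest.

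**Figure D1:**
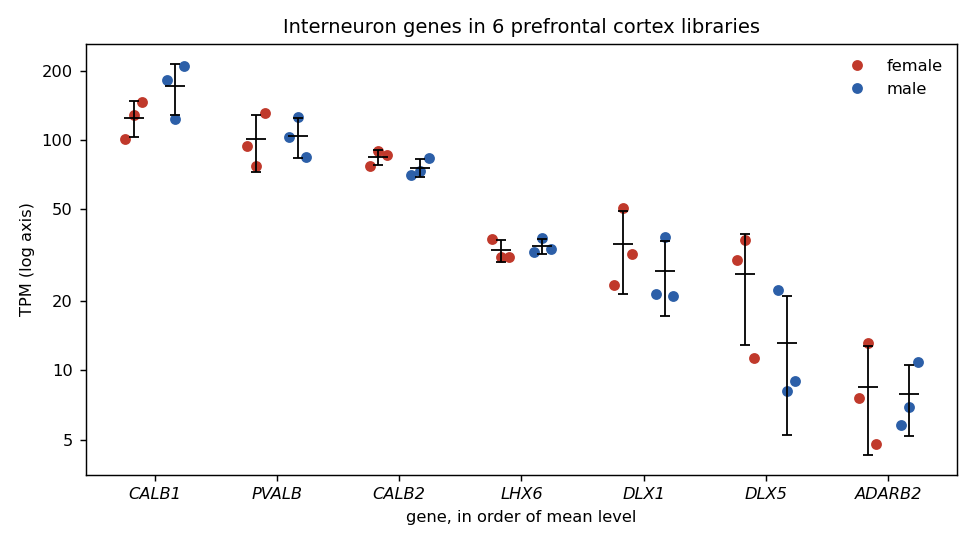
Level of the 7 genes in each library, as TPM on a log axis, with genes in order of their mean over 6 libraries. Each point is 1 animal (red, females; blue, males), and black bars give the mean ± SD of the 3 animals of a sex; points of both sexes overlap for every gene, CALB2 and LHX6 are tightly grouped, and DLX5 runs from 8.18 to 36.7 TPM.

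By mean level the order was CALB1, PVALB, CALB2, LHX6, DLX1, DLX5 and ADARB2. Neighbours in this order were compared within libraries by an exact two-sided sign-flip permutation test of the 6 differences in log2(TPM + 1), in which no p-value below 0.03125 is possible. The clearest step was from CALB2 to LHX6, where CALB2 was higher in 6 of 6 libraries by 1.22 ± 0.222 on the log2 scale (SD, n = 6, exact permutation p = 0.03125, adjusted p = 0.141 over 6 pairs). CALB1 was above PVALB in 5 of 6 libraries (exact permutation p = 0.0625, adjusted p = 0.141), and PVALB was above CALB2 in 5 of 6 (exact permutation p = 0.0938, adjusted p = 0.141). LHX6 and DLX1 were not separated, as LHX6 was higher in 3 of 6 libraries (exact permutation p = 0.625). DLX1 exceeded DLX5 in 4 of 6 libraries (exact permutation p = 0.125, adjusted p = 0.15), and DLX5 exceeded ADARB2 in 5 of 6 (exact permutation p = 0.0938, adjusted p = 0.141). After adjustment no pair of neighbours passed a threshold of 0.05. The pairs and their direction were taken from the means of the same libraries, and with 6 pairs a single pair could not have passed even when 1 gene was higher in every library, so these p-values describe the order rather than test it.

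Of the 28740 genes tested, on the autosomes and the X chromosome, 67.7% had a lower mean TPM than ADARB2 and 96.1% a lower mean than CALB1, and the other 5 genes lay between. Their spread across libraries, measured as the SD of log2(TPM + 1), covered a wide range. LHX6 had an SD of 0.116 and CALB2 of 0.132, and only 1.34% and 2.19% of the genes tested had a smaller SD. The median over all genes tested was 0.48. PVALB and CALB1 had an SD of 0.30 and 0.38, ADARB2 of 0.49, DLX1 of 0.495 and DLX5 of 0.88, above 75.7% of the genes. These shares are a description over genes of all levels.

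The question of the design was whether females and males differ. All genes that passed the filter were compared between the sexes on the log2(TPM + 1) scale by limma, which fits a linear model to each gene and moderates its variance toward a trend with level. P-values were adjusted (Benjamini-Hochberg) within the autosomes, and the threshold was 0.1. None of the 7 genes passed, and 0 of 7 had an unadjusted limma p-value under 0.05. In simulated data this test recovered 4% of changes of 1 in log2, and each of the 7 differences was smaller. The failure to pass the adjusted threshold therefore says little about whether the sexes differ. Over all 27996 autosomal genes tested, 0.0143% passed the adjusted threshold, and 5.04% fell under 0.05 before adjustment. The paper tested read counts of the same animals with DESeq2 at the same threshold and reported many more autosomal genes. Those genes were not compared here, so these shares describe the limma test alone. The sexes overlapped for each of the 7 genes. They did not overlap for 9.81% of the autosomal genes, a share at which 0 of 7 does not set these genes apart. The median difference of the 7 genes was 0.045 and that of all autosomal genes was −0.031.

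DLX5 had the largest difference, with a female mean of 26.1 ± 13.2 TPM and a male mean of 13.2 ± 7.92 TPM (SD, n = 3 each). On the log2(TPM + 1) scale females were higher by 0.92 (95% confidence interval −0.21 to 2.05, limma, Benjamini-Hochberg adjusted p = 0.925). CALB1 had the largest difference toward males, with a female mean of 125 ± 22.6 TPM and a male mean of 171 ± 43.4 TPM (SD, n = 3 each). The log2 difference was −0.43 (95% confidence interval −0.97 to 0.11, adjusted p = 0.925 by the same limma test). Leaving out 1 animal at a time gave DLX5 differences from 0.61 without female 3 to 1.41 without female 4, and CALB1 differences from −0.27 without male 5 and −0.29 without female 1 to −0.65 without male 4. Neither difference exceeded the spread among animals of a sex by this test, and both intervals include 0.

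For DLX1 the log2 difference was 0.37 (95% confidence interval −0.39 to 1.12), which became 0.080 without female 3 and 0.64 without male 4. For ADARB2 it was 0.045 (−0.897 to 0.987), and it ran from −0.29 without female 3 to 0.35 without female 4. The other 3 genes had smaller intervals than DLX1. CALB2 differed by 0.15 (−0.21 to 0.51), LHX6 by −0.062 (−0.47 to 0.34) and PVALB by −0.068 (−0.61 to 0.48). With 1 animal omitted, LHX6 lay between −0.15 (without female 1) and −0.0061 (without male 4), and PVALB turned to 0.11 without female 3 and 0.074 without male 4. Adjusted limma p-values of the 7 genes lay between 0.925 and 0.997.

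**Figure D2:**
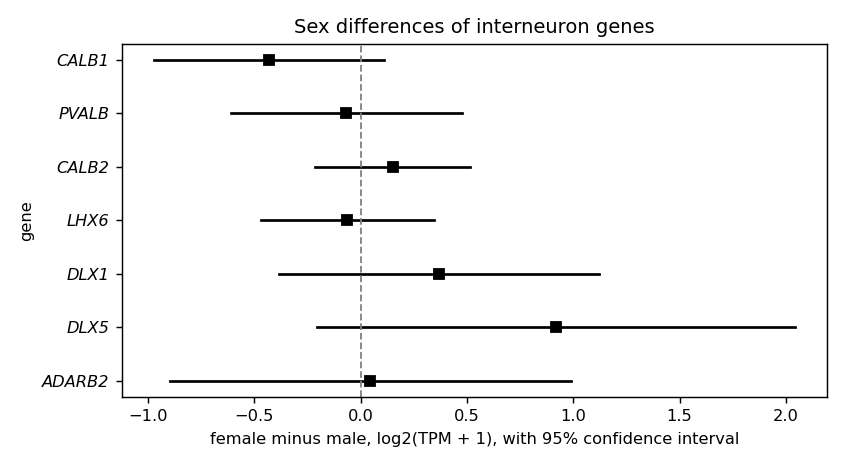
Female minus male difference in log2(TPM + 1) of the 7 genes on the horizontal axis, 1 gene per row, from the limma fit of 3 females and 3 males. Squares are the estimates and lines the 95% confidence intervals; all 7 intervals include 0, and the interval of DLX5 is the widest, from −0.21 to 2.05.

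Ratios of 2 genes within a library do not depend on the scaling of that library. They are ratios of bulk RNA and not of interneuron classes, since excitatory and striatal neurons also make calbindin and some libraries carried striatal genes. LHX6 exceeded ADARB2 in every animal, by 4.89, 2.38 and 6.46-fold in females 1, 3 and 4 and by 5.64, 5.39 and 3.09-fold in males 1, 4 and 5. CALB1 exceeded CALB2 in every animal too, by 1.31, 1.45 and 1.69-fold for females 1, 3 and 4 and by 2.57, 1.68 and 2.50-fold for males 1, 4 and 5. Thus males 1 and 5 were above every female, and male 4 was just below female 4. PVALB was above CALB2 in all animals but female 3, with ratios of 1.21, 0.861 and 1.52 for females 1, 3 and 4, and of 1.45, 1.71 and 1.01 for males 1, 4 and 5.

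On the log2 scale, with 1 TPM added to both genes, the female minus male difference of these ratios was −0.58 for CALB1 to CALB2 (exact permutation test of the 6 animals, two-sided, p = 0.2, adjusted p = 0.6 over 3 ratios). It was −0.22 for PVALB to CALB2 (exact permutation test, p = 0.6, adjusted p = 0.8) and −0.11 for LHX6 to ADARB2 (exact permutation test, p = 0.8, adjusted p = 0.8). With 3 animals against 3 this test cannot give a p below 0.1. The ratio of DLX1 to DLX2 had been planned as well and could not be formed.

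The libraries high in DLX5 were also those that carried genes of the striatum. RGS9, a regulator of G-protein signalling enriched in striatal neurons, was at 48.0, 43.7 and 1.52 TPM in females 1, 3 and 4 and at 54.6, 0.355 and 0.392 TPM in males 1, 4 and 5. SIX3, a transcription factor of developing striatal neurons, was at 13.9, 10.4 and 0.327 TPM in females 1, 3 and 4 and at 19.1 TPM in male 1, and was listed at 0 in males 4 and 5. ISL1, another striatal transcription factor, was at least 1.19 TPM in females 1 and 3 and male 1 and was listed at 0 in female 4 and males 4 and 5. The split ran within both sexes and was the one seen for DLX5.

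Of the 10 striatal genes listed, 5 were matched by name, and their summed level was between 68.6 and 83.8 TPM in females 1 and 3 and male 1 and between 4.52 and 6.54 TPM in the other 3 libraries. By sex the sum ranged from 4.52 to 70.5 TPM in females and from 5.54 to 83.8 TPM in males. The other 2 genes of the list did not divide the libraries in this way, as DRD1, a dopamine receptor, was higher in male 4, at 4.83 TPM, than in male 1, at 4.02 TPM, and RARB, a retinoic acid receptor, was higher in male 5, at 2.44 TPM, than in female 1, at 2.37 TPM. The part of such RNA in the level of DLX5 was not tested. In the 3 libraries with less than 1 TPM of SIX3, DLX5 had a mean of 9.51 TPM, and its log2 difference, here of 1 female and 2 males, was 0.36. These are also the 3 libraries lowest in DLX5, and SIX3 was singled out after its values were seen, so the choice of libraries fixes the low mean and these values do not bear on the source of the DLX5 signal.

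The same 3 libraries were also the highest for some genes of other lists. TAC1, the precursor of substance P, was at 89.2, 78.3 and 26.0 TPM in females 1, 3 and 4 and at 232, 22.3 and 10.6 TPM in males 1, 4 and 5. CDHR1, a protocadherin listed here among genes of the olfactory bulb, was at 14.0, 17.7 and 2.80 TPM in females 1, 3 and 4 and at 9.61, 0.469 and 0.514 TPM in males 1, 4 and 5. Both genes divided the libraries as DLX5 did, but some other genes of their lists did not. DCX was higher in male 5, at 10.1 TPM, than in female 1, at 9.06 TPM. The neuropeptides SST and NPY were highest in female 4, at 805 and 323 TPM.

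PENK, the precursor of enkephalins, was between 174 and 216 TPM in females 1 and 3 and male 1 and between 98.9 and 130 TPM in the other 3 libraries. Among oligodendrocyte markers, MOG, a myelin protein, was between 76.4 and 126 TPM in those 3 libraries and between 10.2 and 63.0 TPM in the others, and OPALIN was between 42.6 and 74.5 TPM and between 18.6 and 31.3 TPM. The locus named OPALIN spans 381166 bp, and the one named MBP, another of these markers, 893 bp. Whether either measures its gene alone or in full was not tested. The 5 oligodendrocyte markers tested summed to 635, 466 and 489 TPM in females 1, 3 and 4 and to 331, 176 and 122 TPM in males 1, 4 and 5, so the sum as a whole divided the libraries by sex rather than in this way. SLC17A6, SP9, TP73, EOMES and NKX2-1 had their 3 highest values in females 1 and 3 and male 1 as well. For EOMES this rested on 0.181 TPM in male 1 against 0.180 TPM in male 5, and NKX2-1 was at most 0.161 TPM. Some other genes of their lists did not divide the libraries so. EBF3 was higher in female 4 than in female 1, at 0.416 and 0.344 TPM, and so was TH, at 1.12 and 0.917 TPM. The named genes were picked after their values were seen, and the share of all genes with this order was not computed. The part of the cell types that these markers stand for in the level of DLX5 was not tested.

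DLX1 did not follow this division, since it was low in female 1 and male 1 and high in male 4. LHX6 and CALB2, with ranges of 1.21-fold and 1.26-fold over all 6 libraries, did not follow it either.

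**Figure D3:**
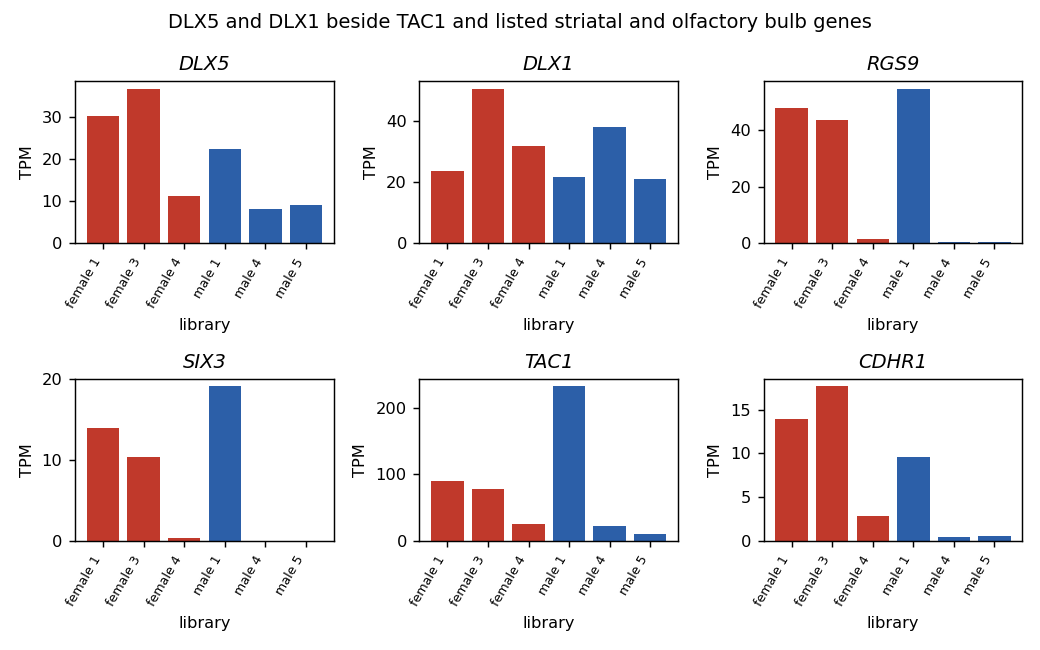
Level in TPM (vertical axes, from 0) of DLX5, DLX1, RGS9, SIX3, TAC1 and CDHR1 in each library (horizontal axes), 1 bar per animal, red for females and blue for males. DLX5, RGS9, SIX3, TAC1 and CDHR1 are highest in females 1 and 3 and male 1, whereas DLX1 is highest in female 3 and male 4.

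CALB1 ran nearly in the order of another property of the libraries. Its level was highest in male 5, male 1 and female 4, in this order, and so was the share of TPM in loci without strand, at 7.88%, 5.16% and 3.33%. In the other 3 libraries the share lay between 2.30% and 2.67% and CALB1 between 101 and 129 TPM. The part of RNA quality or of the strandless signal in the level of CALB1 was not tested.

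The gene body of ADARB2, which spans 555997 bp, held 22 of these strandless loci. Their summed level was 1.62, 1.10 and 19.8 TPM in females 1, 3 and 4 and 60.1, 20.4 and 56.4 TPM in males 1, 4 and 5. TPM is scaled for length at each locus, so a sum over 22 loci cannot be set against the level of ADARB2 itself. Only the order of the libraries is compared here. Female 3 had the highest ADARB2 and the lowest sum, whereas male 5 was second highest for both. The part of these loci in the level of ADARB2 was not tested. None of the other 6 genes held a strandless locus.

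**Figure D4:**
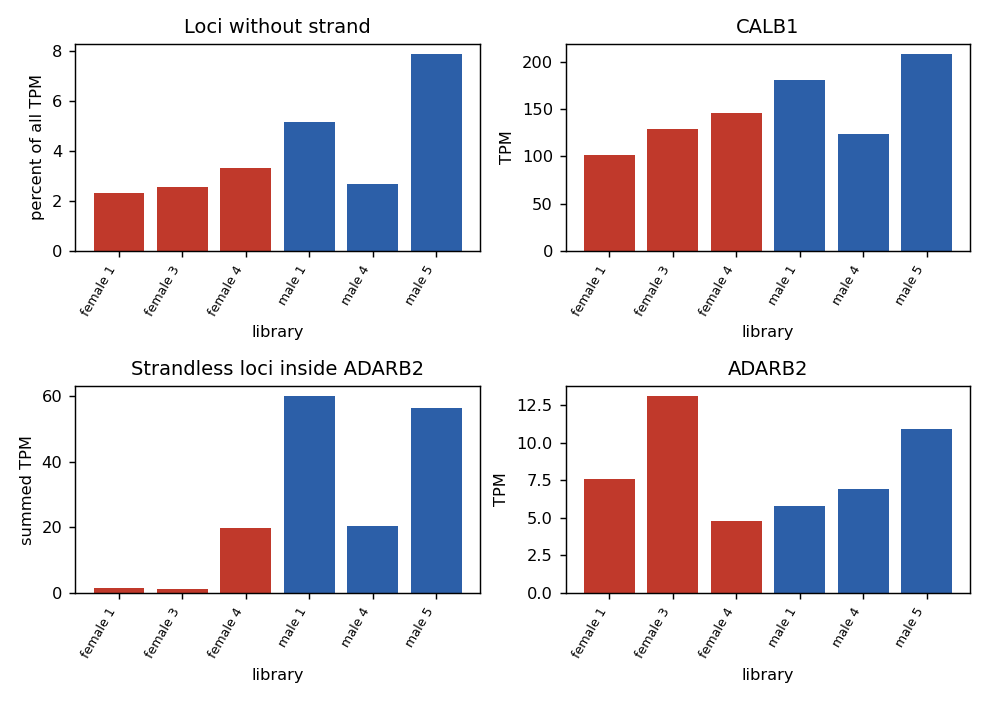
Share of all TPM in loci without strand (percent), level of CALB1 (TPM), summed TPM of the 22 strandless loci inside ADARB2 and level of ADARB2 (TPM) in each library, 1 bar per animal, red for females and blue for males, all axes from 0. CALB1 is highest in male 5, male 1 and female 4, which also have the largest shares, and the sum inside ADARB2 runs from 1.10 to 60.1 TPM while ADARB2 stays between 4.81 and 13.1 TPM.

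No source used here names a strand-specific library, so reads of genes that overlap on opposite strands cannot be told apart. DLX1 overlaps by 635 bp an unnamed locus of the minus strand (153764218 to 153779347), which was at 32.1, 46.6 and 31.2 TPM in females 1, 3 and 4 and at 25.2, 28.8 and 22.2 TPM in males 1, 4 and 5. This locus was about as strong as DLX1 and, like DLX1, was highest in female 3, and the tables do not say which gene it is. Whether it holds an unmatched gene of the set, such as DLX2, was not tested. CALB1 lies wholly within the span of DECR1, a mitochondrial enzyme of fatty acid oxidation on the other strand, which had a mean of 4.34 TPM. CALB2 overlaps TLE7 by 5132 bp at a mean of 2.96 TPM, and the loci that overlap PVALB, LHX6 and DLX5 had means of 1.09 TPM or less.

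DLX5 overlaps an unnamed locus of the plus strand with a mean of 0.837 TPM. Further away, at 7631 and 8339 bp from DLX5, lie an unnamed locus of each strand. The one on the minus strand was at 12.3, 26.3 and 10.7 TPM in females 1, 3 and 4 and at 15.2, 10.6 and 8.94 TPM in males 1, 4 and 5. The one on the plus strand was at 13.4, 19.7 and 10.8 TPM in females 1, 3 and 4 and at 14.3, 7.13 and 6.70 TPM in males 1, 4 and 5. Both were highest in females 1 and 3 and male 1, as DLX5 was. Another unnamed locus, 59476 bp away on the minus strand, was at 11.3, 17.7 and 13.4 TPM in females 1, 3 and 4 and at 18.5, 11.4 and 11.4 TPM in males 1, 4 and 5, so it did not divide the libraries as DLX5 did.

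The patterns of the 7 genes over the 6 libraries were compared with those of 40 genes from lists of interneuron, reelin and EF-hand genes. These correlations describe 6 libraries, of which some share the high marker levels given above, and carry no test. For each gene the highest of 40 values are named, and with 6 libraries such a choice favours high values. PVALB was most like SST, the peptide of the other large MGE class (Pearson's r = 0.90, Spearman's rho = 0.94, n = 6), and next most like NPY (r = 0.70). ADARB2 was most like GAD1 (r = 0.94, rho = 0.94, n = 6) and PROX1, a transcription factor of CGE interneurons (r = 0.93, rho = 1).

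CALB1 was most like VSNL1, a neuronal EF-hand calcium sensor (r = 0.90, rho = 0.94, n = 6), followed by CRH (r = 0.78). CALB2 was most like NR2F1, a transcription factor of the CGE (r = 0.86, rho = 0.89), and DLX1 was most like LRP8, a reelin receptor (r = 0.95, rho = 0.83), each with KCNC1 next (r = 0.70 and r = 0.79). DLX5 was most like HAPLN4, a link protein of perineuronal nets (r = 0.90, rho = 0.89), and SLC32A1 (r = 0.82). LHX6, with its narrow range, reached no more than r = 0.61 (RAPGEF1) and r = 0.54 (NPAS1).

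Between the 7 genes themselves, the strongest relation of the 21 pairs was an opposite one between PVALB and ADARB2 (r = −0.88, rho = −0.94, n = 6). PVALB was lowest and ADARB2 highest in female 3, and PVALB was highest and ADARB2 lowest in female 4. DLX1 and DLX5 were hardly related (r = 0.17, rho = 0.26).

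**Figure D5:**
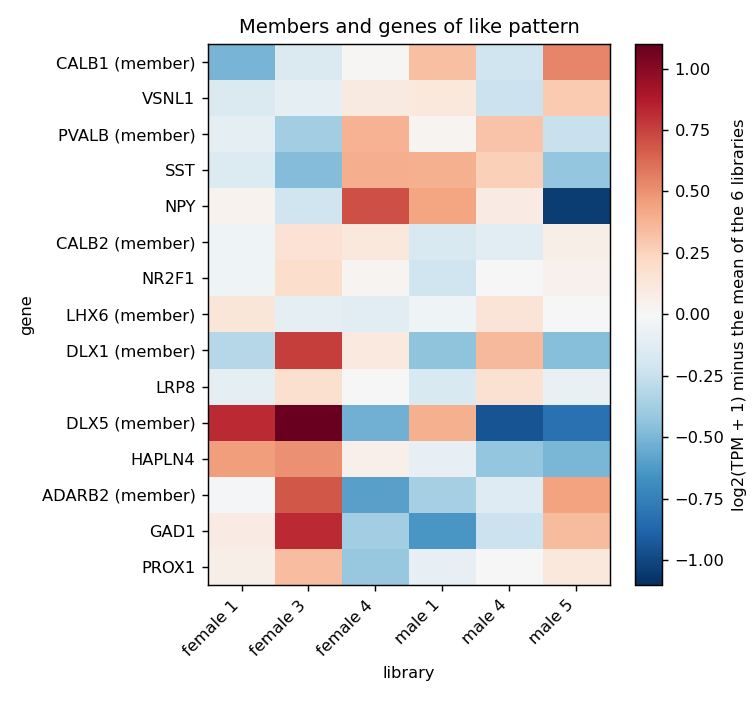
Deviation of each gene (rows) in each library (columns) from its mean over the 6 libraries, in log2(TPM + 1), with red above and blue below the mean, for the 7 members and 8 genes of like pattern. PVALB and SST share high values in female 4 and male 4, ADARB2 and GAD1 share high values in female 3 and male 5, and the rows of LHX6 and CALB2 are pale throughout.

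Other genes of the interneuron system were examined as lists. Of 15 genes of the MGE lineage and of fast-spiking cells, 12 were matched and tested, and none passed the adjusted limma threshold. They were divided equally by sign, with a median log2 difference of −0.086. HAPLN4 lay between 139 and 191 TPM among females and between 94.7 and 126 TPM among males, without overlap (log2 difference 0.68, limma, Benjamini-Hochberg adjusted p = 0.925). SATB1, a chromatin organiser of MGE interneurons, had a log2 difference of −0.31 and the fast potassium channel gene KCNC2 of −0.32, and neither passed.

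Of 12 genes of the CGE lineage and layer 1, 5 were tested and 0 were called, with a median log2 difference of −0.013. The orphan nuclear receptor NR2F1 and NPAS1 differed by 0.12 and 0.18, and the cannabinoid receptor CNR1 and the receptor kinase KIT by −0.24 and −0.20. Of 5 genes of GABA synthesis and transport, 3 were tested and 0 were called, with differences of 0.45 for SLC32A1, 0.35 for GAD1 and −0.46 for GAD2. GAD2, which makes GABA at terminals, varied widely, with 43.3, 82.2 and 8.61 TPM in females 1, 3 and 4 and 16.1, 59.3 and 87.4 TPM in males 1, 4 and 5. LHX6 and CALB2 showed no such spread.

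Among 9 interneuron neuropeptides, 8 were tested and 0 were called. PNOC, the precursor of nociceptin, lay between 11.6 and 17.7 TPM among females and between 18.0 and 25.2 TPM among males, without overlap (log2 difference −0.69, limma, Benjamini-Hochberg adjusted p = 0.925). CCK, made by a class of CGE interneurons and by excitatory cells, had a log2 difference of −0.45 without overlap of the sexes, NPY of 0.35 and TAC1 of 0.54.

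RELN itself was not analysed here, but 6 of 8 listed genes of its pathway were tested, and none was called. The receptors LRP8 and VLDLR had means of 49.1 ± 5.07 and 17.7 ± 4.82 TPM (SD, n = 6), and the adaptor DAB1 had 27.0 ± 4.96 TPM. Their log2 differences between the sexes were 0.059, 0.18 and −0.12, and that of the exchange factor RAPGEF1 was −0.087. Of 12 other EF-hand calcium sensors, 6 were tested and 0 were called, with a median of −0.10. CABP1, a neuronal calcium sensor, differed by 0.497, SRI by −0.15 and NCS1 by −0.057.

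Markers of oligodendrocytes, the myelinating cells, had higher means in females, although none passed the adjusted threshold. Of 8 listed, 5 were tested, and all 5 had a positive log2 difference, with a median log2 difference of 1.17. Their summed level lay between 466 and 635 TPM among females and between 122 and 331 TPM among males. MAG and SOX10 had log2 differences of 1.68 and 1.17 without overlap (limma, Benjamini-Hochberg adjusted p = 0.893 and 0.925). Their part in the sex differences of the 7 genes was not tested.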

How the data were processed

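Polyadenylated RNA from 6 animals was sequenced as paired reads. The authors mapped the reads to TS_3.0 with HISAT2 (2.2.1), assembled transcripts in each animal with StringTie (2.2.1), merged them with the reference annotation and measured abundance in each animal. The deposited TPM values are scaled by the authors for length and library, the deposited FPKM values are the same measure on another library scale, and the deposited coverage (signal) is the mean depth over a locus without library scaling. The abundance tables hold no read counts, and the library summary in the study's supplement was not used here, so no counting intervals were computed and the count test of the authors was not repeated.

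Tables were handled in pandas 2.3.3 and numpy 2.4.6 under Python 3.11.15, and plots were made in matplotlib 3.10.9. Exact tests were written out in Python with numpy. Their adjusted p-values and the Spearman correlations came from scipy 1.17.1. Rows were summed by gene ID and chromosome. Genes reaching 0.1 TPM in at least 3 libraries were tested on log2(TPM + 1) with limma 3.58.1 in R 4.3.3, without covariates, leaving out segments of chromosomes X and 26 that the study set aside. The pseudocount understates changes of weakly expressed genes. P-values were adjusted (Benjamini-Hochberg) within 27996 autosomal and 744 X-linked genes. On simulated data with 28740 genes, changes of 1 and 2 in log2 were recovered in 4% and 48% of cases. Nearly all changes of 1 or less would thus be missed, and many of 2.

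Alternatives were other pseudocounts, filters, scalings and units, stranded loci alone, the animal number as a block, no trend, and each animal left out. In each of the 16 lists (128 genes, of which 90 were matched), called genes and those with the 2 highest and 2 lowest limma statistics are named, and for each member the 2 likest genes. Some genes that this rule names are not reported here. The genes set beside DLX5 in particular, and ISL1, LHX1 and LHX5, were singled out after their values were seen. The members and lists were chosen with earlier results of these data known. RefSeq's gene table (TupChi_1.0) holds symbols for all 10 members but is of another build, so none of its positions were used.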

Additional observations from a re-analysis of the deposited data

How the results depend on the processing

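The count of members called by limma was 0 of 7 in each of 17 alternatives, but without the trend and in the 3 libraries low in SIX3 no autosomal gene was called at all, so those 2 say nothing about the members. The count of listed genes called was 0 as well, and 10 of 86 had an unadjusted limma p-value under 0.05 with all libraries (the share over all autosomal genes was 5.04%). That count was 6 of 86 with the replicate block and ran from 5 of 84 without female 3 to 16 of 84 without male 1. A member reached an unadjusted limma p-value under 0.05 only without female 4 or male 1 (DLX5, log2 difference 1.41 and 1.35, against 0.61 to 0.74 without each of the others) or without male 4 (CALB1, −0.65). Of 119 differences of members under alternatives, 109 kept their sign, and the lowest adjusted limma p-value was 0.445. DLX5, CALB1, CALB2 and LHX6 kept their sign throughout. With each animal left out, the log2 difference of PVALB ran from −0.27 to 0.11 and that of ADARB2 from −0.29 to 0.35, and ADARB2 was −0.0065 over stranded loci. With the libraries under 1 TPM of SIX3 alone, an alternative chosen after seeing the data in which 1 female is assumed to vary like the 2 males, PVALB turned to 0.34 and ADARB2 to −0.74, while the median of all genes shifted by −0.12. With each animal left out, the sex difference in the log2 ratio ran from −0.37 to 0.26 for LHX6 to ADARB2, from −0.43 (without male 5) to −0.0014 (without female 3) for PVALB to CALB2 and from −0.78 to −0.48 for CALB1 to CALB2. The count of 4 autosomal genes called became 2 with FPKM, 0 without the trend (1461 at an unadjusted p-value under 0.05), 0 in the 3 libraries under 1 TPM of SIX3 (1593 unadjusted) and 2 to 5 with each animal left out, with 2 without female 1 or male 5. By coverage, DLX1 moved above LHX6, and the number of neighbouring pairs that differed stayed at 0 (with 5 libraries the sign-flip test cannot pass).

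The animal numbers 1 and 4 occur in both sexes but belong to different animals, and the deviations of same-numbered animals were hardly correlated (r = 0.00098 and 0.038 across genes). With the replicate block, 2 autosomal genes and 0 members were called, DLX5 was at 0.42 and CALB1 at −0.30, and DLX1 and ADARB2 turned to −0.063 and −0.055. The cause of these changes was not tested.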

Other observations

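Other cell types of the tissue were measured with the remaining lists, and none of their genes passed the adjusted limma threshold of 0.1. Of 11 markers of excitatory neurons, 9 were tested, with a median log2 difference between females and males of 0.18. The layer 5 factor FEZF2 differed by 0.62, the transporters SLC17A6 and SLC17A7 by 0.80 and 0.11, and NEUROD6 by −0.43, at 89.9 to 108 TPM in females and 110.2 to 145 TPM among males. SLC17A6, the glutamate transporter of subcortical neurons, was at 8.43, 11.3 and 3.85 TPM in females 1, 3 and 4 and at 13.7, 2.41 and 1.11 TPM in males 1, 4 and 5, so that it was highest in the libraries high in DLX5.

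Cajal-Retzius cells, the layer 1 neurons known for RELN, had few marker transcripts. LHX5 was listed at 0 in every library and LHX1 in 5 of 6, TP73 was at 1.97 to 3.19 TPM and EBF3 at 0 to 0.494 TPM. The 5 tested genes of the olfactory bulb and neuroblasts summed to between 20.2 and 60.3 TPM in females and between 20.9 and 34.2 TPM in males, with the highest sum in female 3, which also had the highest DLX1 and DLX5. Among them SP9, a factor of interneuron precursors, was at 9.11 to 25.5 TPM, DCX at 7.09 to 11.7 TPM and TH at 0 to 3.71 TPM.

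The summed level of 5 astrocyte markers ran from 1404 to 2079 TPM among females and from 1432 to 2184 TPM among males, with log2 differences of 1.09 for ALDH1L1, 0.0032 for SLC1A2, −0.25 for GFAP and −0.13 for SLC1A3. Of 8 microglia markers 5 were tested, with a median of −0.18, and AIF1 and P2RY12 differed by −0.50 and −0.29, CSF1R by −0.13 and C1QB by 0.41. The 5 endothelial and mural markers tested had a median of 0.29, with CLDN5 between 33.5 and 60.7 TPM among females and between 23.2 and 28.9 TPM among males, and FLT1, VWF and PECAM1 at differences of 0.25, 0.37 and −0.20. Among blood markers, ALAS2 and AHSP differed by 1.28 and 0.51, and among those of choroid plexus, AQP1, TTR and FOLR1 by 0.95, 0.95 and −1.72.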
